A study of Mus musculus with 16 samples.

Results

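RNA-seq libraries of quadriceps muscle from mice lacking HDAC3 were compared to ask which transcripts differed between rest and the hours after treadmill running when this deacetylase is missing. The comparison held 6 libraries: 3 of knockout mice at rest and 3 of knockout mice after running, out of 12 RNA-seq libraries and 16 libraries in the series, which also holds 4 nascent-RNA (GRO-seq) libraries that are not analysed here. The wild-type libraries, 3 at rest and 3 after running, shared the estimate of spread and were used to test whether the running difference itself differed between the genotypes. All mice were male, on the C57B/6 background as labelled, 4 months old and fed normal chow. Running consisted of 3 bouts on a treadmill, each lasting 1 h at 10 m/min and separated by 1 h intervals, and muscle was harvested 2 h after the last bout. The promoter or driver used to delete the gene, the hour of sampling and whether each library came from its own mouse are not given in the sources used here. The p-values therefore measure the spread between these libraries, which may be in part technical. Of 24327 genes found in both deposited tables, the 10691 with a mean of 1 FPKM or more in either knockout group were tested. FPKM are fragment counts scaled to transcript length and to library size.

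HDAC3 is a histone deacetylase that works inside the NCoR and SMRT corepressor complexes, where nuclear receptors such as REV-ERB and the peroxisome proliferator-activated receptors (PPARs) use it to keep target genes low. In muscle it is known for its part in the choice between lipid, glucose and amino acid fuel. A bout of running raises calcium, AMP and catecholamine signals in the fibre, brings glucocorticoids and fatty acids in the blood, and is followed for some hours by transcription of genes for fat use, stress proteins and the coactivator PGC-1alpha.

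The rest libraries stood in one deposited table and the running libraries in another, so each library was first rescaled by its median ratio to the mean library. The factors were near 1, between 0.9856 and 1.017 over the 12 libraries, and the median log2 difference over all genes tested was 0.003 in knockout and -0.013 in wild type. A factor common to a table is removed by this step, but any other difference in how the 2 tables were made, or in how the animals of the 2 conditions were handled, cannot be told apart from running. Correlations of log2 levels were 0.977 to 0.982 among the resting knockout libraries, 0.975 to 0.98 among the running ones and 0.966 to 0.98 between the groups. Levels are rescaled FPKM per library, in the order of the replicate numbers, or the mean ± SD of 3 libraries (n = 3), and log2 differences are running minus rest after a pseudocount of 1 FPKM, so that differences of low transcripts come out too small.

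Hdac3 itself stood at 5.44, 6.21 and 8.02 FPKM in the 3 resting knockout libraries and at 5.36, 6.39 and 4.19 after running. The wild-type libraries held 33.0, 31.2 and 23.7 at rest and 31.1, 32.2 and 27.4 after running, all above every knockout library. Within the knockout the difference was -0.26 (SE 0.17, adjusted p = 0.637) and the groups overlapped. Some Hdac3 reads remained in the knockout, and neither the deleted exons nor the cells that keep the gene are given in those sources.

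A total of 9 genes passed the test after running in the knockout, 0.0842% of those tested. Of these 5 rose, a share of 0.0468%: Ucp3, Galnt15, Musk, Syt12 and Lrrc58. The other 4 fell, a share of 0.0374%: Ky, Hs3st5, Ppat and Rbfox2. The test was limma with moderated variances over 12 libraries, two-sided, with Benjamini-Hochberg adjustment over all 10691 genes and a threshold of 0.05. A total of 1113 genes had an unadjusted p under 0.05 (10.4%), of which 595 were higher (5.57%) and 518 lower (4.85%) after running. All 3 running libraries lay above all 3 resting ones for 794 genes (7.43%) and below them for 858 genes (8.03%). With a log2 difference of at least 1 in size as well, 43 genes were higher (0.402%) and 13 lower (0.122%). The same contrast in wild type called 7 genes, or 0.0655%.

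**Figure D1:**
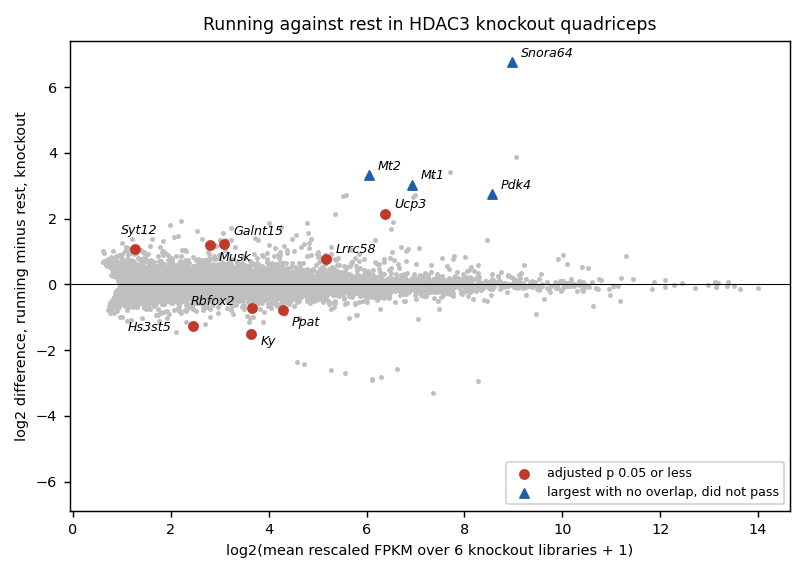
Each grey point is 1 of 10691 genes, placed by log2(mean rescaled FPKM over the 6 knockout libraries + 1) on the x axis and by its log2 difference, running minus rest, on the y axis. The 9 genes that passed the test are red and lie between a log2 difference of -1.50 (Ky) and 2.15 (Ucp3); the blue triangles are Snora64, Mt2, Mt1 and Pdk4, whose larger differences did not pass.

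Ucp3, the uncoupling protein that muscle places in the inner mitochondrial membrane and that accompanies fatty acid use, rose most among the genes that passed. Its 3 resting knockout libraries held 27.5, 39.5 and 23.3 FPKM and the running ones 149, 135 and 119 FPKM. Every running library was far above every resting one, and the log2 difference was 2.15 (SE 0.30, adjusted p = 0.0397). Musk, the receptor kinase through which agrin assembles the neuromuscular junction, rose from 2.98, 2.81 and 3.95 FPKM to 9.48, 8.32 and 8.17 FPKM, a difference of 1.19 (SE 0.16, adjusted p = 0.0397). The 3 running libraries were closely grouped and well above those at rest. Galnt15, a member of the enzyme family that starts mucin-type O-glycan chains, stood at 2.68, 4.88 and 4.90 FPKM at rest and 9.27, 10.3 and 13.2 FPKM after running, a log2 difference of 1.23 (SE 0.19, adjusted p = 0.0471). Syt12, a synaptotagmin of vesicle traffic, was a transcript of low level that rose from 0.543, 0.554 and 0.530 FPKM to 2.90, 2.42 and 1.61 FPKM, a difference of 1.08 (SE 0.17, adjusted p = 0.049). Its resting libraries were nearly equal and its running libraries were spread. Its resting mean of 0.542 FPKM was under the filter of 1 FPKM, which it met through the running group alone (mean 2.31 FPKM). Syt12 could therefore enter the test only by being higher after running. Lrrc58, a leucine-rich repeat protein, had narrow groups, with 23.5, 26.3 and 27.5 FPKM at rest and 45.1, 42.7 and 46.7 FPKM after running; it rose by 0.78 (SE 0.12, adjusted p = 0.0471). It was also the single gene called in both genotypes, since wild type rose by 0.82 (adjusted p = 0.0371).

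Ky, a peptidase-like protein of the muscle Z-disc whose loss causes kyphoscoliosis in mice, fell most among the genes that passed. Its level was 17.7, 21.4 and 13.4 FPKM in the resting knockout libraries and 5.90, 6.60 and 4.04 FPKM in the running ones, a log2 difference of -1.50 (SE 0.20, adjusted p = 0.0397). Even the highest running library was well below the lowest resting one. Hs3st5, a sulfotransferase that finishes heparan sulfate chains, fell from 5.56, 7.24 and 7.23 FPKM to 2.01, 1.83 and 2.80 FPKM (difference -1.26, SE 0.19, adjusted p = 0.0471). Ppat, the amidotransferase that commits ribose phosphate to new purine synthesis, fell from 24.0, 26.2 and 20.9 FPKM to 12.7, 13.7 and 13.6 FPKM (difference -0.78, SE 0.10, adjusted p = 0.0397). The running libraries of Ppat lay within 1 FPKM of each other. Rbfox2, a regulator of alternative splicing in muscle, fell from 14.8, 14.1 and 15.4 FPKM to 8.17, 9.05 and 8.31 FPKM (difference -0.73, SE 0.11, adjusted p = 0.0471).

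**Figure D2:**
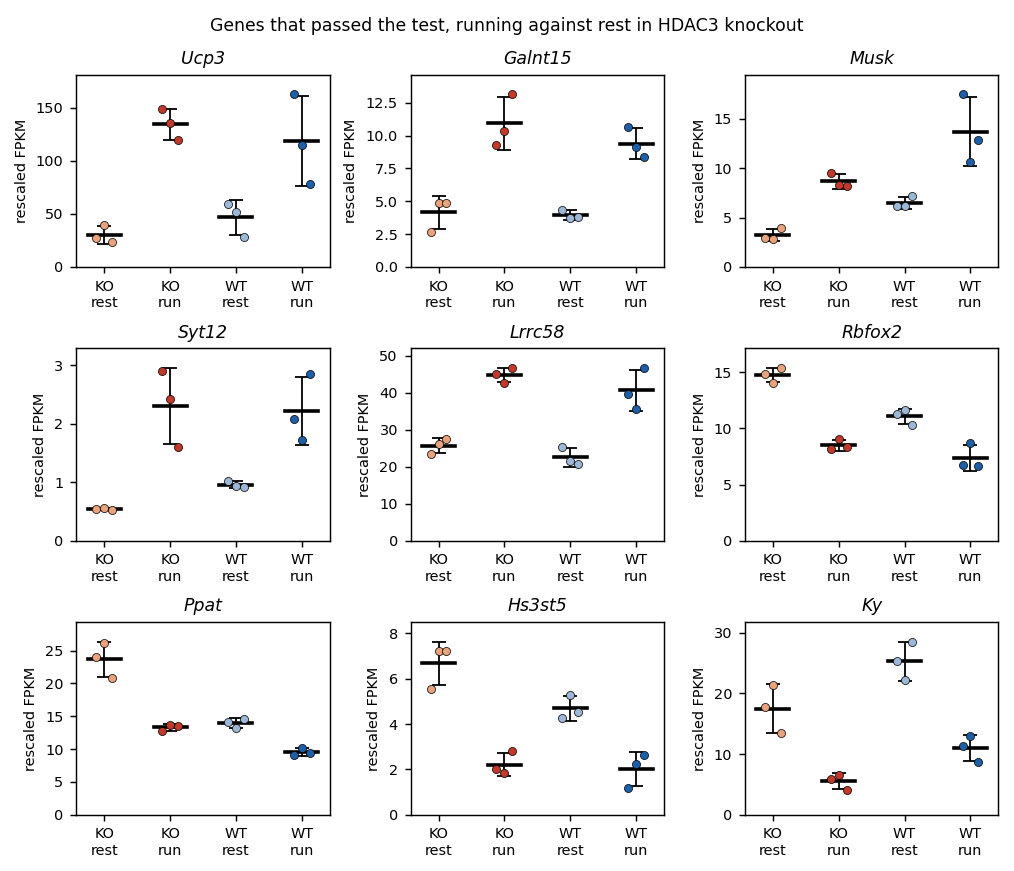
Rescaled FPKM per library (points) with the mean and SD of 3 libraries (bars) for the 9 genes that passed the test, in knockout (KO) and wild type (WT) at rest and after running; each y axis starts at 0. In every panel the knockout's running libraries lie wholly above or wholly below its resting ones, as for Ucp3 (27.5, 39.5 and 23.3 against 149, 135 and 119 FPKM).

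The wild-type libraries differed in the same direction. All 9 genes were also without overlap between rest and running in wild type, in the direction of the knockout. Over all genes tested, 7.06% were higher and 8.87% lower without overlap in wild type. The test took its spread from all 12 libraries, which favours genes with narrow wild-type groups. These shares are therefore no even baseline for the 9 genes. Both genotypes also share the division of rest and running into 2 tables. In all, 0 of the 9 had an unadjusted p under 0.05 for the difference between the genotypes. Ucp3 was 1.33 in wild type against 2.15 in knockout, and that gap of 0.82 had a 95% interval from -0.12 to 1.75. For Ky the values were -1.14 and -1.50, and for Musk 0.95 and 1.19. Their adjusted p values lay between 0.0397 and 0.049, and leaving out 1 library at a time changed the count. It was 0 without any 1 of the resting knockout libraries 1 and 2, the 3 running knockout libraries, or the resting wild-type libraries 1 and 2. It was 2 without resting knockout library 3, 1 without resting wild-type library 3 and 15 without running wild-type library 1. All 9 kept their direction under each alternative that tested them, and leaving out single libraries kept the Ucp3 difference between 1.99 and 2.35.

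Promoters of the genes that passed were read for 4 short motifs linked to signals that follow exercise. The windows are the 250 bases before the annotated start, from RefSeq on GRCm38.p6; 7 of the 9 genes had a window. The motifs, searched on both strands, were the cyclic AMP response element core TGACG, the E-box CACGTG bound by clock factors, the AP-1 site TGANTCA and the paired heat shock unit GAANNTTC. Windows of 2 genes held the first, 1 the E-box, 1 the AP-1 site and 0 the heat shock unit. Among 10481 windows of tested genes the shares with a match were 27.3%, 8.48%, 4.38% and 5.04%, and among all 32851 windows 17.8%, 6.02%, 6.75% and 6.69%. The 3 windows that hold a match are shown because they are the promoters among those genes in which these letters occur, with the matches in capitals, none of them overlapping. A match describes the letters and shows no binding.
Galnt15, chr14:32028853-32029102, plus strand, cyclic AMP response element core then AP-1 site: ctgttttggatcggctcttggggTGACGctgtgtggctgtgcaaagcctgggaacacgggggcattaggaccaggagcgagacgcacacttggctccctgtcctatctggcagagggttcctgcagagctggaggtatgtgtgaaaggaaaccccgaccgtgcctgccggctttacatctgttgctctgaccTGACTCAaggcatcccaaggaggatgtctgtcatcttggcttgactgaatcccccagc
Lrrc58, chr16:37868150-37868399, plus strand, E-box: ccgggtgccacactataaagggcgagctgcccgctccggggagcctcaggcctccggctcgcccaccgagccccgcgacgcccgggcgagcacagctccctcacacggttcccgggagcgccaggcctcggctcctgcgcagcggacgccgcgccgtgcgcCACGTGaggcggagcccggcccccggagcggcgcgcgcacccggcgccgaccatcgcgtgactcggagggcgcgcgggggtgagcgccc
Ppat, chr5:76951579-76951828, minus strand, cyclic AMP response element core: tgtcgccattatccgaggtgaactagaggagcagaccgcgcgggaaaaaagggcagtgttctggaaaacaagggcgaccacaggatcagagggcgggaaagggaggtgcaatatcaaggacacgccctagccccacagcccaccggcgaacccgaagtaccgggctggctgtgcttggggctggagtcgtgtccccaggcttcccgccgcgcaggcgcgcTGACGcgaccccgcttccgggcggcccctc

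Larger differences than that of Ucp3, with no overlap between the groups, were found in 4 genes that did not pass. Pdk4, the kinase that shuts off pyruvate dehydrogenase when fat is burned, stood at 88.0, 126 and 68.0 FPKM at rest and 973, 618 and 382 FPKM after running (difference 2.74, SE 0.56, adjusted p = 0.115). The metallothioneins are small metal-binding proteins induced by zinc and glucocorticoids. Mt2 held 6.95, 6.62 and 12.2 FPKM at rest and 254, 63.7 and 47.9 FPKM after running (difference 3.33, SE 0.57, adjusted p = 0.0713), and Mt1 held 9.42, 29.3 and 31.8 FPKM and 422, 122 and 109 FPKM (difference 3.04, SE 0.56, adjusted p = 0.0944). The first running library was the highest for Mt1, Mt2 and Pdk4, and the other 2 running libraries were still above every resting one. Snora64, a small nucleolar RNA, was listed at 0 in resting libraries 1 and 3 and at 331 FPKM in the second, against 1557, 787 and 346 FPKM after running (adjusted p = 0.37). A transcript this short is measured poorly by FPKM. The promoters of the metallothionein pair are shown because both genes were high in the same running library; Mt1 holds the cyclic AMP response element core, which lies on the opposite strand, and Mt2 an AP-1 site.
Mt1, chr8:94178839-94179088, plus strand, cyclic AMP response element core: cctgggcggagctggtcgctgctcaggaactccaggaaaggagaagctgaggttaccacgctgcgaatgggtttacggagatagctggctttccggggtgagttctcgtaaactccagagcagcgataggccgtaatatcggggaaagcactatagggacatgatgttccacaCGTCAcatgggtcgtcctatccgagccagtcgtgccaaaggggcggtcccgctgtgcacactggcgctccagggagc
Mt2, chr8:94172368-94172617, plus strand, AP-1 site: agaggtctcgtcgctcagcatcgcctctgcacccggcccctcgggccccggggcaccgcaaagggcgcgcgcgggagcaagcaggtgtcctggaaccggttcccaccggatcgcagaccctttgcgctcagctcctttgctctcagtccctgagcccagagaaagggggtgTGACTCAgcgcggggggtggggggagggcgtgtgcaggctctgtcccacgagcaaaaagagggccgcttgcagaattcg

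Genes that respond to glucocorticoids formed the list with the highest median in knockout among the 35 lists other than cell type markers. The lists were chosen with earlier results of these data known, so this rank is a description and no test. Of 19 members tested in the list "glucocorticoid-responsive genes and metallothioneins", 0 passed. At an unadjusted p under 0.05, 11 were higher and 0 lower, against 5.57% and 4.85% of all genes tested. The median log2 difference was 0.82. In wild type the median was 0.91 and 15 of 19 had an unadjusted p under 0.05, higher, against 4.61% of all genes higher and 5.12% lower in that contrast. Fkbp5, the chaperone that limits the glucocorticoid receptor, held 7.38, 24.3 and 15.1 FPKM at rest and 23.9, 31.0 and 43.2 FPKM after running (difference 1.12, adjusted p = 0.331). Tsc22d3, which encodes the anti-inflammatory protein GILZ, held 131, 214 and 204 FPKM and 209, 353 and 427 FPKM. In both genes the groups overlapped, and the first resting library was the lowest. That library was also the lowest for Cebpd, at 0.581 FPKM against 6.27 and 5.66, and for Klf15, at 8.23 against 24.3 and 18.3. Without it the list's median was 0.52 and 7 members had an unadjusted p under 0.05, and without the third running library the values were 0.71 and 7. Glul, glutamine synthetase, and Txnip, an inhibitor of glucose uptake, were the most abundant members: Glul stood at 338 ± 115 FPKM at rest and 419 ± 139.7 FPKM after running and Txnip at 232 ± 109 FPKM at rest and 325 ± 127 FPKM after running. The Glul difference was 0.31 in knockout and 1.59 in wild type (unadjusted limma p of the gap between genotypes 0.0159). Over all genes tested, 4.91% had an unadjusted p under 0.05 for this gap, and 0 passed after adjustment. Nr3c1, the receptor gene itself and no member of the list, held 35.2, 33.1 and 30.5 FPKM at rest and 22.5, 24.2 and 23.8 FPKM after running (difference -0.47, adjusted p = 0.0998). The plasma hormone and the hour of sampling were not measured or given, and their part was not tested.

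**Figure D3:**
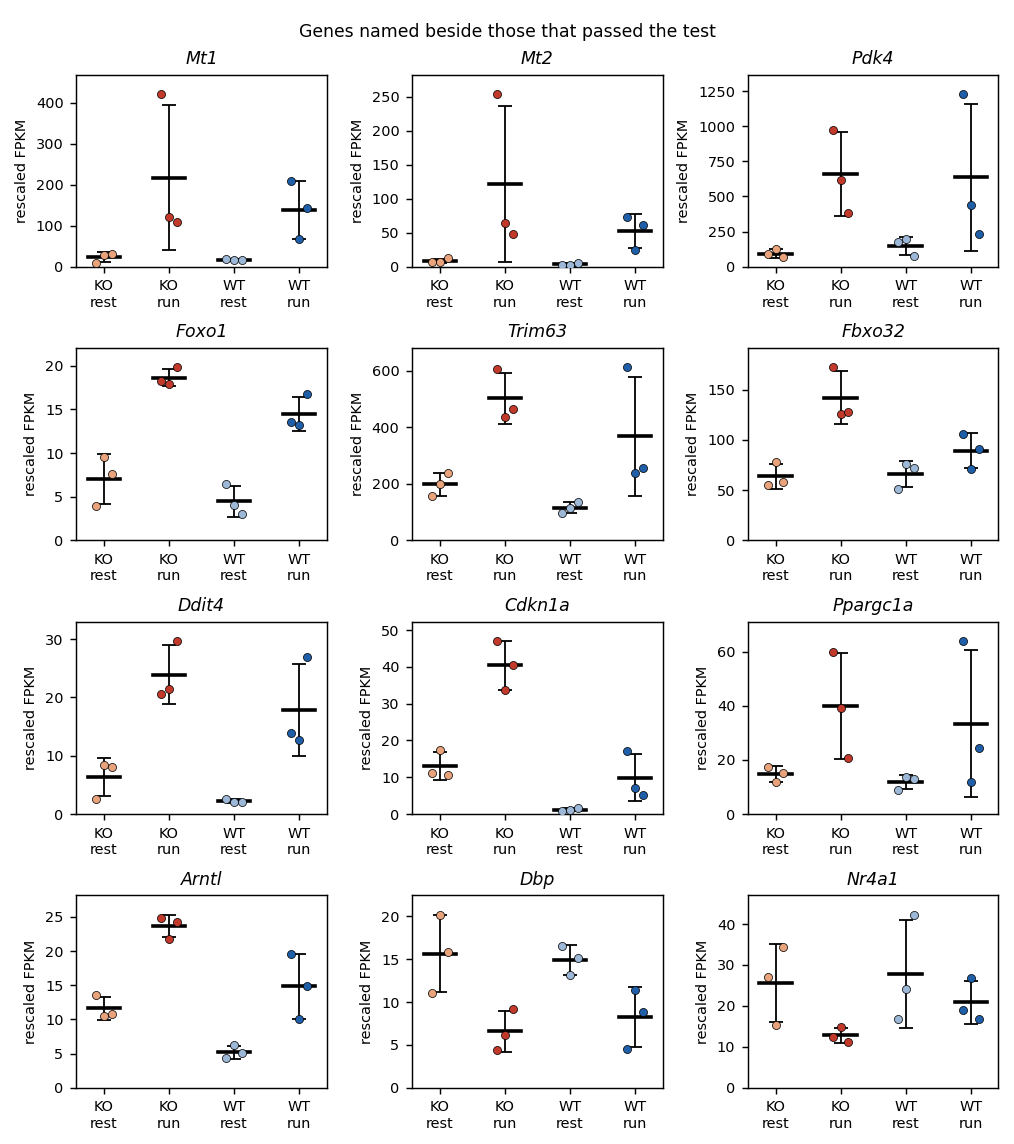
Rescaled FPKM per library (points) with the mean and SD of 3 libraries (bars) for 12 genes that did not pass the test in knockout, in knockout (KO) and wild type (WT) at rest and after running; each y axis starts at 0. Foxo1 at 18.3, 17.9 and 19.8 FPKM after running lies above all resting knockout libraries (3.92, 9.58 and 7.64 FPKM), and Mt1, Mt2 and Pdk4 share 1 high running library.

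The list of fuel genes under PPAR control had a positive median and held the gene with the largest called difference. Its counts, and those of the triglyceride list, stand beside 5.57% higher and 4.85% lower over all genes tested at an unadjusted p under 0.05. In the list "PPAR-responsive fuel genes", 1 of 18 members passed, 8 were higher and 0 lower at an unadjusted p under 0.05, and the median was 0.40. Ucp3, described above, was the member called. Without the first running library the median was 0.25. Angptl4, which blocks lipoprotein lipase, held 1.55, 0.670 and 0.412 FPKM at rest and 8.83, 7.05 and 3.27 FPKM after running (difference 1.94, adjusted p = 0.235). With a resting mean of 0.876 FPKM, Angptl4 met the filter of 1 FPKM through the running group alone. Fabp3, the fatty acid carrier of muscle, held 684, 693 and 710.2 FPKM at rest and 1695, 1003 and 995 FPKM after running, and Acot2, a mitochondrial thioesterase, 6.83, 4.47 and 4.67 and 37.6, 9.17 and 10.9. In these 2 genes the first running library stood far above the other 2. The list "triglyceride storage and lipolysis" had 19 members tested, 0 of which passed, with 5 higher and 1 lower at an unadjusted p under 0.05 and a median of 0.29. Lpin1, a phosphatidate phosphatase, held 97.1, 101 and 101 FPKM and 185, 139.5 and 141 FPKM (difference 0.62, adjusted p = 0.0725). Plin4, a lipid droplet coat protein, held 35.4, 108 and 88.9 FPKM at rest and 141, 124 and 184 FPKM after running. Plin5, which ties droplets to mitochondria, held 6.62, 15.3 and 12.9 FPKM and 33.7, 28.8 and 37.5 FPKM. The lipase Pnpla2 held 16.0, 23.5 and 23.0 FPKM and 71.6, 25.2 and 30.8 FPKM. All 3 genes kept rest and running apart.

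The enzymes downstream of these genes had medians near 0. The shares of all genes tested at an unadjusted p under 0.05 were 5.57% higher and 4.85% lower. Among 19 members of "mitochondrial beta-oxidation", 0 passed, and 1 was higher and 0 lower at an unadjusted p under 0.05 (median 0.07). Its most abundant members, Hadhb and Acadm, stood at 426 ± 20.3 FPKM at rest and 443 ± 37.2 FPKM after running and at 235 ± 12.6 FPKM at rest and 233 ± 8.86 FPKM after running. With a median of -0.03, "respiratory chain and ATP synthase" had 0 of 39 members passing and 0 higher and 0 lower at an unadjusted p under 0.05. Atp5b, a catalytic subunit of ATP synthase, stood at 2176 ± 87.3 FPKM at rest and 2092 ± 93.4 FPKM after running, and Cox7a1, the muscle form of a cytochrome oxidase subunit, at 1707 ± 141 FPKM at rest and 1595 ± 116 FPKM after running. Slc25a5, an ADP/ATP carrier of the inner membrane and no member of that list, held 41.8, 45.0 and 47.4 FPKM at rest and 86.6, 72.5 and 71.4 FPKM after running (difference 0.76, adjusted p = 0.0944). For "pyruvate dehydrogenase and TCA cycle" the median was 0.03, with 0 of 30 members passing, 2 higher and 2 lower at an unadjusted p under 0.05. Pdk4 was the member with the largest difference, while the malate dehydrogenase Mdh1 stood at 539.6 ± 44.6 FPKM at rest and 506 ± 43.8 FPKM after running. Of 19 members tested in the list "lipid and sterol synthesis", 0 passed; 2 were higher and 0 lower at an unadjusted p under 0.05, and the median log2 difference was -0.02. Acacb, which makes the malonyl-CoA that holds back fat oxidation, held 22.1, 28.2 and 29.1 FPKM at rest and 55.2, 30.7 and 41.0 FPKM after running, without overlap, and Me1, malic enzyme, stood at 70.9 ± 4.87 FPKM at rest and 68.3 ± 6.95 FPKM after running.

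The glucose and amino acid lists had 0 members that passed. Their counts at an unadjusted p under 0.05 stand beside 5.57% higher and 4.85% lower over all genes tested. In the list "glycolysis", 0 of 25 members passed, 2 were higher and 0 lower at an unadjusted p under 0.05, and the median was 0.03. The abundant enzymes Aldoa stood at 9153 ± 330.2 FPKM at rest and 9378 ± 1171 FPKM after running, and Eno3 at 3807 ± 403 FPKM at rest and 3512 ± 662 FPKM after running. The list "glycogen metabolism" had 15 members tested, 0 of which passed, with 1 higher and 0 lower at an unadjusted p under 0.05 and a median of -0.05. Ppp1r3c, which targets a phosphatase to glycogen, held 587, 674 and 919 FPKM at rest and 1072, 1211 and 1751 FPKM after running in knockout (difference 0.88, adjusted p = 0.273); in wild type it rose by 2.12 (adjusted p = 0.0181), and the gap between genotypes of -1.24 had an unadjusted p of 0.00678. An unadjusted p under 0.05 for this gap was found in 4.91% of all genes tested, and 0 passed after adjustment. Pygm, muscle glycogen phosphorylase, stood at 2107 ± 239.8 FPKM at rest and 2058 ± 290.1 FPKM after running. Among 30 members of "amino acid and purine nucleotide breakdown", 0 passed, and 1 was higher and 4 lower at an unadjusted p under 0.05 (median -0.04). Got1, a transaminase that moves reducing equivalents, stood at 372 ± 38.2 FPKM at rest and 447 ± 29.1 FPKM after running. With a median of 0.22, "amino acid transporters" had 0 of 15 members passing and 3 higher and 2 lower at an unadjusted p under 0.05. Slc25a12, the mitochondrial aspartate carrier, stood at 233 ± 20.3 FPKM at rest and 231 ± 16.5 FPKM after running, and Slc38a3, a glutamine transporter, at 35.8 ± 9.24 FPKM at rest and 46.8 ± 8.65 FPKM after running. Without the third resting library the median of the transporters was 0.02, and without the third running one 0.10. For "polyamine metabolism" the median was -0.12, with 0 of 12 members passing, 0 higher and 0 lower at an unadjusted p under 0.05. Oaz1, an inhibitor of polyamine synthesis, stood at 298 ± 24.5 FPKM at rest and 282 ± 62.7 FPKM after running, and Amd2, whose reads can be shared with its near-identical copy Amd1, at 240.1 ± 60.8 FPKM at rest and 234 ± 58.5 FPKM after running. Of 22 members tested in the list "insulin signalling and AMPK", 0 passed; 2 were higher and 1 lower at an unadjusted p under 0.05, and the median log2 difference was 0.01. Prkag2, a regulatory subunit of AMP-activated kinase, held 6.27, 1.84 and 2.38 FPKM at rest and 14.8, 11.2 and 8.20 FPKM after running (difference 1.55, adjusted p = 0.146), and Tbc1d1, which gates glucose transporter traffic, held 34.9, 32.6 and 49.8 and 79.4, 62.3 and 80.9 FPKM. Both were without overlap, whereas the glucose transporter Slc2a4 stood at 227 ± 17.8 FPKM at rest and 226 ± 39.3 FPKM after running and the kinase subunit Prkab2 at 99.0 ± 14.6 FPKM at rest and 97.7 ± 9.59 FPKM after running.

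The FoxO and atrophy list also had a positive median. For the counts of the 3 lists that follow, the shares over all genes tested were 5.57% higher and 4.85% lower. In the list "FoxO factors and atrophy ubiquitin ligases", 0 of 19 members passed, 6 were higher and 1 lower at an unadjusted p under 0.05, and the median was 0.40. Foxo1, a transcription factor of fasting and disuse, held 3.92, 9.58 and 7.64 FPKM at rest and 18.3, 17.9 and 19.8 FPKM after running (difference 1.36, SE 0.27, adjusted p = 0.104). Trim63, the ubiquitin ligase MuRF1, held 157, 199.8 and 237 FPKM at rest and 605, 437 and 465 FPKM after running (difference 1.34, adjusted p = 0.156). Fbxo32, the ligase atrogin-1, held 55.1, 78.2 and 57.8 FPKM at rest and 172, 125 and 127 FPKM after running (difference 1.14, adjusted p = 0.0725). All running libraries of these 3 genes lay above all resting ones, although none passed. Ubb, a ubiquitin gene, stood at 243 ± 9.61 FPKM at rest and 379 ± 126 FPKM after running. The Fbxo32 difference in wild type was 0.42 with overlapping groups (gap between genotypes 0.72, unadjusted p = 0.0265). After adjustment 0 genes passed for this gap, and 4.91% of all genes tested had an unadjusted p under 0.05. The list "autophagy and mitophagy" had 27 members tested, 0 of which passed, with 4 higher and 2 lower at an unadjusted p under 0.05 and a median of -0.04. Sqstm1 and Pink1 are a cargo receptor and a mitophagy kinase. Sqstm1 stood at 277 ± 19.3 FPKM at rest and 315 ± 79.4 FPKM after running, and Pink1 at 297 ± 28.8 FPKM at rest and 286 ± 63.6 FPKM after running. Among 16 members of "growth arrest and p53-linked genes", 0 passed, and 3 were higher and 0 lower at an unadjusted p under 0.05 (median 0.25). Cdkn1a, the cell cycle inhibitor p21, held 11.2, 17.5 and 10.7 FPKM at rest and 46.9, 33.7 and 40.6 FPKM after running (difference 1.57, adjusted p = 0.128), and Gadd45a, a growth arrest factor, held 9.65, 12.5 and 7.57 and 34.1, 20.7 and 15.2 FPKM. Ccng1 and Phlda3 were the most abundant members. Ccng1 stood at 553 ± 33.2 FPKM at rest and 519 ± 67.5 FPKM after running, and Phlda3 at 154 ± 14.6 FPKM at rest and 193 ± 33.3 FPKM after running. Without the first running library the median of this list was 0.12.

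Clock genes lay on both sides of 0. At an unadjusted p under 0.05, 5.57% of all genes tested were higher and 4.85% lower. With a median of -0.05, "core circadian clock" had 0 of 13 members passing and 1 higher and 2 lower at an unadjusted p under 0.05. Arntl, the activator BMAL1, held 13.6, 10.5 and 10.8 FPKM at rest and 24.9, 21.8 and 24.3 FPKM after running (difference 0.97, adjusted p = 0.115); in wild type it rose by 1.32 (adjusted p = 0.0485). Per3, a repressor of the loop, held 3.77, 5.89 and 3.85 FPKM and 2.21, 2.91 and 2.31 FPKM. The receptor Nr1d2, REV-ERBbeta, stood at 63.8 ± 7.20 FPKM at rest and 51.3 ± 6.15 FPKM after running. For "clock output factors" the median was -0.14, with 0 of 13 members passing, 2 higher and 4 lower at an unadjusted p under 0.05. Dbp, an output activator, held 11.0, 20.1 and 15.8 FPKM at rest and 4.37, 6.13 and 9.17 FPKM after running (difference -1.15, adjusted p = 0.232), and Bhlhe41, a repressor, 11.1, 8.91 and 9.96 and 5.49, 6.56 and 4.99 FPKM (difference -0.72, adjusted p = 0.144). Ciart, another repressor, held 4.83, 5.11 and 7.65 and 2.26, 2.47 and 1.50 FPKM. Arntl was thus higher, and Dbp, Per3, Bhlhe41 and Ciart lower, in all 3 running libraries. Tef stood at 85.6 ± 15.1 FPKM at rest and 83.0 ± 15.8 FPKM after running, and Tfrc at 118 ± 15.3 FPKM at rest and 119 ± 23.8 FPKM after running. Transcripts of this loop change with the hour of the day, and the part of sampling time was not tested.

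Transcription factors of the early response were scattered among libraries. The list counts below stand beside 5.57% higher and 4.85% lower over all genes tested at an unadjusted p under 0.05. Of 20 members tested in the list "AP-1 and other immediate early genes", 0 passed; 1 was higher and 0 lower at an unadjusted p under 0.05, and the median log2 difference was 0.18. Fos held 10.2, 6.93 and 45.8 FPKM at rest, where the third library stood apart, and 10.0, 5.97 and 4.10 FPKM after running. Dusp1, a phosphatase of MAP kinases, stood at 57.7 ± 28.2 FPKM at rest and 37.5 ± 17.3 FPKM after running, and Atf3, a stress factor, at 28.4 ± 22.9 FPKM at rest and 34.1 ± 19.5 FPKM after running. The median of this list depended on single libraries: it was 0.00, -0.09 and 0.48 without resting libraries 1, 2 and 3, and -0.01, 0.38 and 0.26 without running libraries 1, 2 and 3. In the list "NR4A receptors, PGC-1 coactivators and partners", 0 of 20 members passed, 4 were higher and 1 lower at an unadjusted p under 0.05, and the median was 0.20. Ppargc1a, which encodes PGC-1alpha, held 17.5, 11.9 and 15.1 FPKM at rest and 59.9, 39.3 and 20.8 FPKM after running (difference 1.27, SE 0.50, adjusted p = 0.412). Its groups did not overlap, and the running libraries were widely spread. Nr4a1, an orphan receptor of the early exercise response, held 27.1, 15.4 and 34.4 FPKM at rest and the lower values of 12.3, 14.9 and 11.1 FPKM after running (difference -0.89, adjusted p = 0.372). Lmcd1 stood at 211 ± 99.5 FPKM at rest and 138 ± 34.4 FPKM after running and Perm1, a muscle partner of PGC-1alpha, at 81.2 ± 16.5 FPKM at rest and 118 ± 37.7 FPKM after running. The list "Kruppel-like factors" had 11 members tested, 0 of which passed, with 1 higher and 1 lower at an unadjusted p under 0.05 and a median of 0.24. Klf9 stood at 57.8 ± 12.6 FPKM at rest and 63.4 ± 2.19 FPKM after running and Klf15 at 16.9 ± 8.12 FPKM at rest and 25.4 ± 7.61 FPKM after running. Leaving out 1 library at a time, the medians ranged from 0.09 to 0.26 for the NR4A list and from 0.09 to 0.30 for the Kruppel-like factors.

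Stress protein lists had positive medians with few members past an unadjusted p of 0.05; leaving out 1 library at a time, the median ranged from 0.12 to 0.27 for the cytosolic, from 0.04 to 0.23 for the reticulum, from 0.12 to 0.29 for the ATF4 and from -0.01 to 0.15 for the oxidant defence list. Among 30 members of "cytosolic heat shock proteins and cochaperones", 0 passed, and 4 were higher and 0 lower at an unadjusted p under 0.05 (median 0.20). For this and the other stress lists, the shares over all genes tested were 5.57% higher and 4.85% lower. Hspa8, the constitutive HSC70, held 1059, 593 and 974 FPKM at rest and 1260.4, 1399.7 and 1298 FPKM after running without overlap, and Cryab, a small heat shock protein, stood at 535 ± 179 FPKM at rest and 569 ± 163 FPKM after running. With a median of 0.17, "endoplasmic reticulum chaperones and degradation" had 0 of 22 members passing and 1 higher and 0 lower at an unadjusted p under 0.05. Hspa5, the chaperone BiP, stood at 139 ± 37.6 FPKM at rest and 176 ± 27.3 FPKM after running and Herpud1 at 104 ± 3.45 FPKM at rest and 99.8 ± 9.49 FPKM after running. For "ATF4 axis of the integrated stress response" the median was 0.19, with 0 of 20 members passing, 4 higher and 0 lower at an unadjusted p under 0.05. Ddit4, an inhibitor of mTORC1, held 2.58, 8.46 and 8.03 FPKM at rest and 20.6, 21.4 and 29.7 FPKM after running (difference 1.87, SE 0.35, adjusted p = 0.0944). Atf4 itself stood at 227 ± 29.9 FPKM at rest and 302 ± 18.4 FPKM after running, without overlap, and Vldlr at 135 ± 11.9 FPKM at rest and 128 ± 6.46 FPKM after running. Of 22 members tested in the list "NRF2-linked oxidant defence", 0 passed; 3 were higher and 0 lower at an unadjusted p under 0.05, and the median log2 difference was 0.08. Gpx4 and Prdx1 are a pair of peroxidases. Gpx4 stood at 316 ± 14.4 FPKM at rest and 324 ± 68.6 FPKM after running, and Prdx1 at 217 ± 17.2 FPKM at rest and 212 ± 14.4 FPKM after running.

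Lists of contractile, calcium handling, junction and myogenic genes had medians between -0.16 and 0.05, with Musk as the member that passed. Over all genes tested, 5.57% were higher and 4.85% lower at an unadjusted p under 0.05. In the list "fast fibre contractile genes", 0 of 15 members passed, 0 were higher and 0 lower at an unadjusted p under 0.05, and the median was -0.07. Tnnt3, fast troponin T, stood at 16943 ± 664 FPKM at rest and 15594 ± 746 FPKM after running and Tpm1 at 13284 ± 984 FPKM at rest and 12043 ± 1793 FPKM after running. The list "slow fibre contractile genes" had 13 members tested, 0 of which passed, with 0 higher and 1 lower at an unadjusted p under 0.05 and a median of -0.16. Leaving out 1 library at a time, the median of the slow list ranged from -0.48 to -0.04. Mybpc1 stood at 1077 ± 104 FPKM at rest and 997 ± 126 FPKM after running. Csrp3, a Z-disc protein, held 372, 77.6 and 464 FPKM at rest and 473, 144 and 122 FPKM after running, so that libraries of a group differed more than the groups. Among 21 members of "sarcomere remodelling and stretch genes", 0 passed, and 0 were higher and 0 lower at an unadjusted p under 0.05 (median 0.03). Acta1 stood at 10400.3 ± 1908 FPKM at rest and 11019 ± 2348 FPKM after running and the giant spring protein Ttn at 2225 ± 128 FPKM at rest and 1822 ± 384 FPKM after running. With a median of -0.11, "sarcoplasmic reticulum calcium handling" had 0 of 21 members passing and 0 higher and 2 lower at an unadjusted p under 0.05. The calcium pump Atp2a1 stood at 4161 ± 537 FPKM at rest and 4592 ± 454 FPKM after running and the store protein Casq1 at 1462 ± 138 FPKM at rest and 1282 ± 217 FPKM after running. Stac3, which links excitation to contraction, held 43.7, 49.1 and 46.9 FPKM at rest and 26.5, 31.3 and 37.6 FPKM after running (difference -0.55, adjusted p = 0.14; gap to wild type -0.50, unadjusted p = 0.0116). Such a gap had an unadjusted p under 0.05 in 4.91% of all genes tested, and 0 passed after adjustment. Calm2, a calmodulin gene and no member of the list, held 185, 191 and 153 FPKM at rest and 55.5, 107 and 98.7 FPKM after running (difference -1.06, adjusted p = 0.0944). For "neuromuscular junction" the median was -0.13, with 1 of 13 members passing, 1 higher and 0 lower at an unadjusted p under 0.05. Musk was the member called. Of 15 members tested in the list "myogenic factors and growth control", 0 passed; 1 was higher and 0 lower at an unadjusted p under 0.05, and the median log2 difference was 0.05. Myf6, the myogenic factor MRF4, held 75.8, 77.9 and 98.0 FPKM at rest and 189.5, 155 and 199.7 FPKM after running (difference 1.11, adjusted p = 0.229), and Mef2c stood at 125 ± 4.87 FPKM at rest and 105 ± 5.31 FPKM after running. In the list "HDAC3 corepressor complex and class IIa deacetylases", 0 of 13 members passed, 0 were higher and 2 lower at an unadjusted p under 0.05, and the median was -0.06. Ncor1 stood at 24.9 ± 2.01 FPKM at rest and 23.8 ± 2.17 FPKM after running, and Gps2 at 22.0 ± 3.13 FPKM at rest and 20.1 ± 1.03 FPKM after running.

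Secreted and matrix genes gave mixed values. Their counts at an unadjusted p under 0.05 stand beside 5.57% higher and 4.85% lower over all genes tested. The list "secreted factors of muscle" had 17 members tested, 0 of which passed, with 2 higher and 3 lower at an unadjusted p under 0.05 and a median of -0.12. Nampt, an enzyme of NAD synthesis that is also secreted, stood at 73.2 ± 8.88 FPKM at rest and 56.1 ± 2.72 FPKM after running, without overlap. Among 19 members of "angiogenesis and hypoxia", 0 passed, and 2 were higher and 3 lower at an unadjusted p under 0.05 (median -0.05). Vegfa stood at 92.4 ± 30.1 FPKM at rest and 102 ± 14.3 FPKM after running and Bnip3 at 244 ± 15.9 FPKM at rest and 191 ± 16.4 FPKM after running. For Bnip3, a hypoxia and mitophagy gene, knockout and wild type lay on opposite sides of 0 (-0.36 and 0.23), with an unadjusted p of 0.00736 for the gap. This gap had an unadjusted p under 0.05 in 4.91% of all genes tested, and 0 passed after adjustment. With a median of -0.14, "collagens and matrix" had 0 of 24 members passing and 2 higher and 2 lower at an unadjusted p under 0.05. Sparc stood at 66.5 ± 17.4 FPKM at rest and 60.0 ± 8.12 FPKM after running, and Col3a1 at 67.0 ± 19.2 FPKM at rest and 46.3 ± 17.2 FPKM after running. The median of this list ranged from -0.32 to 0.03 when 1 library was left out.

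Markers of other cells were summed in each library as a check on composition; in bulk tissue, fewer cells of a type and less RNA per cell cannot be told apart. Muscle fibre markers, which none of the libraries lacked, summed to 42560 to 52160 FPKM in resting and 42620 to 54240 FPKM in running knockout libraries. Macrophage markers summed to 86.08, 53.24 and 58.54 FPKM at rest and to 76.01, 101.4 and 119.3 FPKM after running. For "markers of macrophages" the median was 0.50, with 0 of 11 members passing, 5 higher and 0 lower at an unadjusted p under 0.05. The shares over all genes tested were 5.57% higher and 4.85% lower. In wild type the median was -0.35, and 6 of the 11 had an unadjusted p under 0.05 for the gap between genotypes. That share was 4.91% over all genes tested, of which 0 passed the limma test of this gap after adjustment (smallest adjusted p 0.829). The 11 markers were read in the same libraries and are not independent replicates. In knockout 1 of the 11 was higher without overlap, against 7.43% of all genes tested. Ccr2, a chemokine receptor of monocytes, held 1.97, 1.51 and 1.85 FPKM at rest and 3.05, 3.19 and 3.16 FPKM after running, and the gap to wild type was 1.02 (unadjusted p = 0.000155). The macrophage genes Lyz2 stood at 33.6 ± 11.0 FPKM at rest and 50.7 ± 12.6 FPKM after running, and Mrc1 at 6.33 ± 1.09 FPKM at rest and 7.15 ± 1.19 FPKM after running. Without the third resting library 0 of the 11 had an unadjusted p under 0.05 in knockout (median 0.37), without the second running library 2 (median 0.54) and without the third 1 (median 0.30). Neutrophil markers set the third running library apart: they summed to 365.3 FPKM there and to at most 8.13 FPKM in the other 5 knockout libraries, where Ly6g, Retnlg, Mpo, Elane, Ngp and Camp were at 0. S100a8 held 0.998, 1.26 and 159 FPKM and S100a9 1.16, 2.19 and 149.9 FPKM in the running libraries. One resting wild-type library had a neutrophil sum of 548.6 FPKM. It also had the highest red blood cell sum in wild type (320.9 FPKM). Running knockout library 3 likewise had the highest knockout sum of red blood cell (440.1 FPKM), fibroblast (813.4 FPKM), macrophage, T and B cell and muscle fibre markers. For endothelial, adipocyte, satellite cell and Schwann cell markers it was not the highest.

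**Figure D4:**
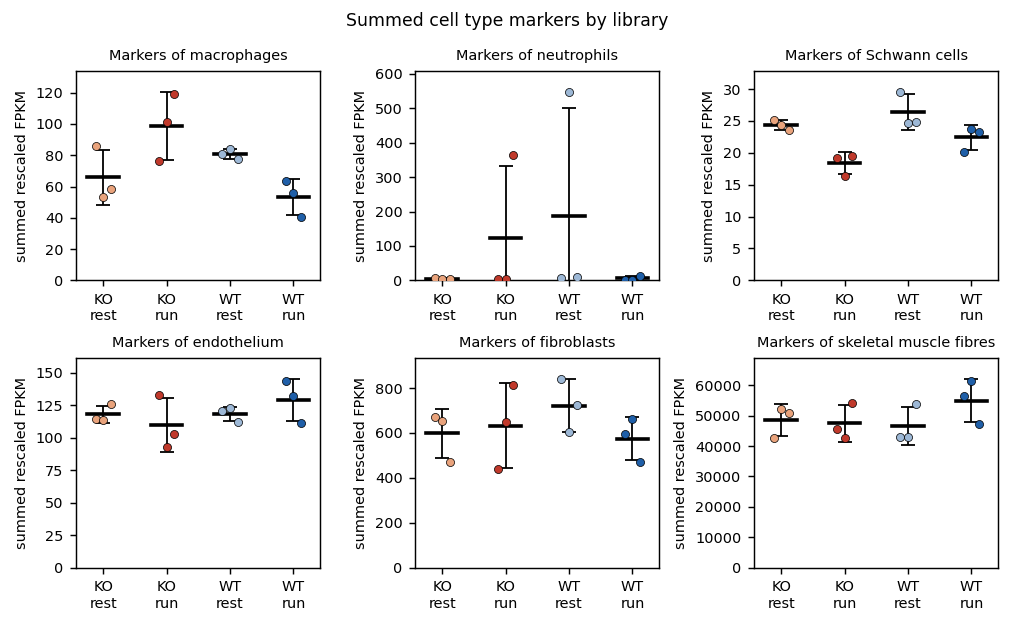
Summed rescaled FPKM of the markers of 6 cell types in each library (points), with the mean and SD of 3 libraries (bars, clipped at 0), in knockout (KO) and wild type (WT) at rest and after running; each y axis starts at 0. The neutrophil panel shows 1 running knockout library at 365.3 FPKM and 1 resting wild-type library at 548.6 FPKM. Schwann cell markers were lower in all 3 running knockout libraries (16.35 to 19.56 FPKM) than at rest (23.53 to 25.21 FPKM). In wild type the Schwann cell sums were also lower after running (20.2 to 23.78 FPKM) than at rest (24.62 to 29.6 FPKM).

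The Schwann cell gene Pmp22, which made up most of the Schwann cell sum, stood at 14.3 ± 0.874 FPKM at rest and 10.4 ± 1.64 FPKM after running. Of the 4 Schwann cell markers tested, 0 were higher and 1 lower at an unadjusted p under 0.05, against 5.57% and 4.85% of all genes. Satellite cell markers summed to 21.45 to 37.12 FPKM at rest and 42.99 to 61.93 FPKM after running, a sum made up mostly by Sdc4, which held 31.4, 16.5 and 29.6 FPKM and 58.9, 38.8 and 49.3 FPKM. In wild type the satellite cell sums were 21.56 to 23.56 FPKM at rest and 26.57 to 44.07 FPKM after running, also without overlap. Chodl stood at 2.61 ± 0.280 FPKM at rest and 2.27 ± 1.10 FPKM after running in knockout. Endothelial sums overlapped (113.9 to 125.5 against 92.98 to 132.9 FPKM), with Pecam1 at 25.5 ± 1.64 FPKM at rest and 24.8 ± 7.12 FPKM after running and Egfl7 at 23.5 ± 3.18 FPKM at rest and 20.7 ± 2.56 FPKM after running. Fibroblast sums overlapped as well (471.7 to 672.7 against 439.1 to 813.4 FPKM), with Dcn at 208 ± 35.6 FPKM at rest and 243 ± 74.0 FPKM after running and Gsn at 186 ± 25.3 FPKM at rest and 223 ± 92.2 FPKM after running. Adipocyte sums ranged from 1700.0 to 2096 FPKM at rest and from 1891 to 2172 FPKM after running; Car3, which muscle fibres also make, stood at 1523 ± 194 FPKM at rest and 1581 ± 85.6 FPKM after running and Fabp4 at 367 ± 48.4 FPKM at rest and 456 ± 168 FPKM after running. T and B cell markers summed to at most 4.302 FPKM in any knockout library, and the leukocyte gene Ptprc stood at 1.21 ± 0.404 FPKM at rest and 1.64 ± 0.574 FPKM after running. Red blood cell sums overlapped (136.3 to 294.4 FPKM at rest against 146.6 to 440.1 FPKM after running). The globin transcripts Hbb-b1 and Hbb-bs are near-identical copies whose reads can be split between them. Hbb-b1 stood at 126 ± 74.9 FPKM at rest and 136 ± 74.8 FPKM after running, and Hbb-bs at 25.6 ± 27.3 FPKM at rest and 54.8 ± 35.9 FPKM after running. The part of these cells in the differences above was not tested.

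**Figure D5:**
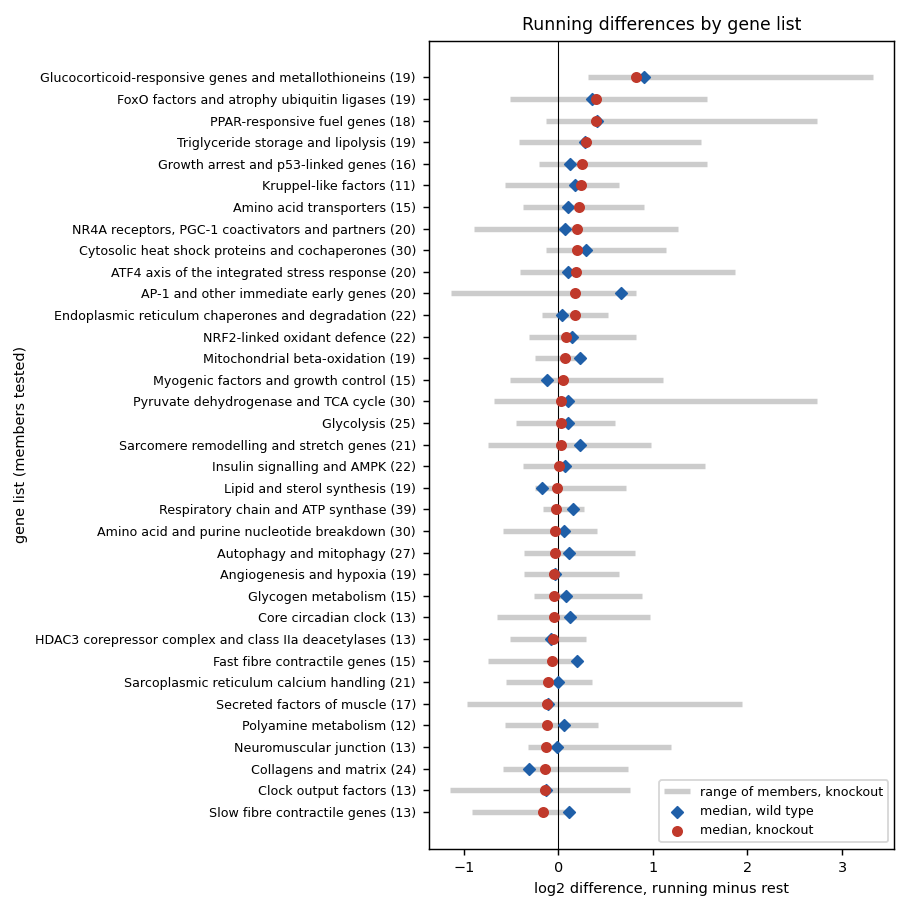
For each of 35 gene lists, cell type markers left out, the grey bar spans the log2 differences (running minus rest, x axis) of its members in knockout, with the median in knockout as a red circle and in wild type as a blue diamond; the number of members tested follows each name. Among the knockout medians, those of the glucocorticoid list (0.82, against 0.91 in wild type), the PPAR list (0.4 against 0.41) and the FoxO list (0.4 against 0.35) lie furthest to the right; the early gene list stands at 0.18 in knockout, a value that ranged from -0.09 to 0.48 when 1 library was left out, and at 0.66 in wild type.

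The running differences of knockout and wild type were then set against each other in 1 test. With limma 0 of 10691 genes (0%) passed it, and 1 passed when running wild-type library 3 was left out; the smallest adjusted p was 0.829, and 525 genes (4.91%) had an unadjusted p under 0.05. Across genes, which are not independent replicates, the 2 differences correlated with r = 0.355, and both carry whatever distinguishes the 2 tables. Of the 43 genes without overlap and at least 1 higher on the log2 scale in knockout, 36 had a positive difference in wild type. So did 47.4% of all genes tested. In wild type 21 of the 43 were also higher without overlap, against 7.06% of all genes tested. Of the 13 lower genes 11 had a negative difference in wild type, as did 52.6% of all genes tested. In wild type 6 of the 13 were lower without overlap, against 8.87% of all genes tested. Some of the 43, Syt12 and Angptl4 among them, met the filter of 1 FPKM through the running knockout group alone. Some of the 13 met it through the resting knockout group alone. Such genes could enter only in the direction counted, so these counts are a description and no test. Klhl38, a kelch protein of muscle, held 9.04, 15.2 and 13.7 FPKM at rest and 25.9, 26.6 and 28.2 FPKM after running in knockout (difference 1.06, adjusted p = 0.0527) against 0.36 in wild type (unadjusted p of the gap 0.0142). Mrm1, a mitochondrial ribosomal RNA methyltransferase, held 2.62, 1.67 and 1.95 FPKM and 6.12, 5.06 and 4.89 FPKM in knockout (difference 1.05, adjusted p = 0.0708) against 0.06 in wild type (unadjusted p of the gap 0.00213). Rnaset2a had the smaller difference in knockout, with 0.67 in knockout and 2.27 in wild type, where it rose from 0.188, 0.0106 and 0.0105 FPKM to 4.71, 3.02 and 4.97 FPKM; it has a near-identical copy, so its reads are uncertain. Il15ra, the interleukin 15 receptor chain, differed by 1.03 and 0.97, and Prkg1, a cyclic GMP-dependent kinase, by -1.02 and -1.20, in knockout and wild type.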

How the data were processed

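RNA-seq of mouse quadriceps was deposited by the authors as FPKM per library, in separate tables for rest and exercise (24354 rows each). Per the submitters' processing notes, TopHat2, Bowtie, Cuffdiff and HOMER were used with mm9; versions, settings and strandedness are not given in the sources used here. Depth was unknown: low values of small RNA genes showed no steps of whole reads (median interquartile range of log2 ratios 0.942 over 66 library pairs). Tables were joined by gene name, without 27 names that a spreadsheet had turned into dates, and condition was read from the table names. Each library was divided by its median ratio to the geometric mean, taken over the 8946 genes that reached 1 FPKM in every library; any 2 libraries had at most 1 equal value among these.

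Then limma 3.58.1 in R 4.3.3 was fitted to log2(FPKM + 1) of 12 libraries (group means, variances moderated with a trend on the mean). Tests were two-sided, and p-values were adjusted over 10691 genes by Benjamini-Hochberg. An exact permutation of 3 against 3 libraries cannot go below p = 0.1 and was not used. The members and the 45 gene lists were chosen with earlier results of these data known.

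Genes were named by rule: Hdac3, the genes that passed, up to 4 that passed per list or else its 2 most abundant members, and the 4 of largest difference without overlap that did not pass. Some genes chosen by this rule are not reported here. Other genes named were chosen after their values were seen. Alternatives covered scaling, pseudocount, filters, libraries in the fit, weights, the replicate number and leaving out each library. The authors' own genotype tests and the GRO-seq libraries were not used.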

Additional observations from a re-analysis of the deposited data

How the results depend on the processing

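All 9 calls sat close to the threshold. The count of calls (total, higher, lower) was 6, 2 and 4 with values as deposited, 5, 2 and 3 with 1 factor per table, 4, 2 and 2 after quantile normalisation, 5, 3 and 2 with a pseudocount of 0.1, 0, 0 and 0 with no filter (16865 genes tested), and 1, 1 and 0 in a fit of the 6 knockout libraries. It was 9 with trimmed mean scaling and with array weights, 8 with a pseudocount of 0.5 and 10 (7 of them shared) with a minimum of 5 FPKM. Added after seeing the data, a fit without the mean-variance trend gave 9 and robust moderation 11. Leaving out 1 library at a time gave 0 to 15 in all, 0 to 11 higher and 0 to 4 lower, and 0 to 1 genes for the difference between genotypes. The 9 differences kept their sign in each of these settings, 8 of 8 with the 5 FPKM minimum.

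The replicate numbers were taken as unpaired: deviations of same-numbered knockout libraries correlated at 0.026, -0.09 and 0.021. With the replicate number as a block, 5 genes were called (3 higher, 2 lower, Pdk4 among them) in the fit of 12 libraries, and 0 (0 higher, 0 lower) in that of 6.

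Of 135 genes followed through 27 alternatives, 37 changed sign in at least 1; none of them had passed the test, and the cause was not tested. Leaving out 1 library at a time, their log2 differences ranged as follows: Acadm -0.06 to 0.02, Acta1 -0.08 to 0.24, Aldoa -0.07 to 0.08, Amd2 -0.22 to 0.15, Arrdc2 -0.34 to 2.04, Atf3 -0.43 to 1.49, Car3 -0.05 to 0.12, Ccng1 -0.19 to 0.00, Chodl -0.45 to 0.01, Cryab -0.15 to 0.35, Csrp3 -1.03 to 0.25, Dcn 0.00 to 0.46, Fabp4 -0.01 to 0.51, Gpx4 -0.15 to 0.14, Gsn -0.12 to 0.52, Hadhb -0.01 to 0.11, Hbb-b1 -0.36 to 0.62, Herpud1 -0.13 to 0.01, Klf9 -0.04 to 0.27, Me1 -0.13 to 0.01, Mthfd2 -0.23 to 0.24, Oaz1 -0.28 to 0.01, Pecam1 -0.28 to 0.05, Pink1 -0.25 to 0.03, Prdx1 -0.10 to 0.03, Prkab2 -0.14 to 0.07, Pygm -0.15 to 0.05, S100a8 -0.70 to 2.46, S100a9 -0.10 to 2.97, Slc25a12 -0.09 to 0.04, Slc2a4 -0.15 to 0.10, Sparc -0.35 to 0.03, Sqstm1 -0.04 to 0.31, Tef -0.17 to 0.11, Tfrc -0.12 to 0.16, Vegfa -0.11 to 0.37. Other settings gave Aldoa 0.00, Gpx4 -0.01 with values as deposited; Cryab -0.01, Prdx1 0.00, Prkab2 0.04, Tfrc 0.00 with array weights; Gpx4 0.00 with 1 factor per table; Hadhb -0.01, Tfrc 0.00, Tnnt3 0.00 with quantile normalisation. Depth limits could not be assessed, because the files give no counts.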
